A study of Homo sapiens with 14 samples.

Results

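The genes described here are those of epithelial cell adhesion, cell junctions and keratin filaments, with the factors and proteases that epithelial cells use beside them. A list of 43 gene symbols was fixed, and a gene was taken up where the array had a probe set annotated to that symbol and no other. This gave 41 of the 43 genes, among 19775 genes in all. F11R and ESRP2 had no such probe set and were not analysed here. The 41 genes had 72 probe sets, and each gene was read from its brightest probe set on average. KRT80 was listed at a signal of 1 in all 14 arrays and has no usable level, so 40 genes had one. The signals are linear fluorescence values of single probe sets, so levels of different genes are not compared.

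The study measured RNA in LNCaP, a luminal prostate cancer cell line of human origin that responds to androgen, with Affymetrix arrays in 7 groups of 2. It asked how phosphorylation of residue T350 bears on gene repression by EZH2, the histone methyltransferase of the Polycomb complex PRC2. Untransfected cells were given 0.1% DMSO (the control of both drugs), 5 uM of the histone deacetylase inhibitor TSA (trichostatin A) or 10 uM of the cyclin-dependent kinase inhibitor Roscovitine for 24 h. The other 4 groups were transfected for 60 h and had no drug: with a control siRNA (si-Control), with an siRNA against EZH2 (si-EZH2), or with si-EZH2 and a plasmid carrying siRNA-resistant EZH2. That plasmid encoded wild-type EZH2 (wild-type add-back) or T350A, in which alanine replaces T350 (T350A add-back). All 3 knockdown groups therefore carried si-EZH2, and the labels name no group with si-EZH2 and an empty plasmid, so the return of EZH2 and the plasmid transfection cannot be told apart. The labels do not say whether the paired samples were grown separately, so a p-value here weighs a difference against sample spread that may be technical only.

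Epithelial cells hold together through 3 kinds of contact. Adherens junctions are built on E-cadherin, desmosomes on desmosomal cadherins tied through plakophilins, plakoglobin and desmoplakin to keratin filaments, and tight junctions on claudins and occludin fixed to scaffold proteins of the zonula occludens family. Luminal prostate cells carry the simple-epithelial keratin pair KRT8 and KRT18, and LNCaP is known for keeping E-cadherin and cell-cell contacts. The GRHL and OVOL transcription factors and the ESRP splicing regulators maintain this state, whereas SNAI, ZEB and TWIST factors bind E-box sequences and repress junction genes.

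Array medians ran from 107.2 to 117.0, and between 31.7% and 34.5% of the probe sets read under 50. EZH2 fitted the labels: its signal was 1161 and 1221 with si-Control, 393 and 393 with si-EZH2, 839 and 822 with the wild-type add-back and 806 and 826 with the T350A add-back. Both add-back groups read below si-Control and above si-EZH2. EZH2 read 1099 and 1085 with DMSO and lower with both drugs, at 854 and 824 with TSA and 849 and 742 with Roscovitine. The replicates of Roscovitine and those of the T350A add-back differed in a like way. Over 15762 genes with a mean signal of at least 50, the differences between the replicates of these 2 groups correlated at r = 0.655. All other pairs of groups ran from -0.229 to 0.225. Genes are not independent replicates, so the correlation is a description. With 2 arrays per group it cannot show which replicate is the odd one. Replicate 2 of both groups is called the array that stood apart below, as a label only. Of the luminal markers 6 of 8 were measured, at a summed signal of 14476 to 28150 in the groups without TSA. The basal markers (3 of 4 measured) summed to 69.9 to 122 and the leukocyte markers (4 of 6) to 361 to 456 in every array, and the basal keratin gene KRT15 was listed between 1.00 and 8.42.

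Differences below are on the log2(signal + 16) scale, which understates the change of dim genes, and are given with the standard error (SE) of a limma fit over all 14 arrays, n = 2 arrays per group. A gene was called, and is said to have risen or fallen, at a Benjamini-Hochberg adjusted p under 0.05 over all 19775 genes. Where groups are said not to overlap, this describes 2 arrays against 2 and adds no support to a call. The share of all genes without overlap was not counted.

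**Figure D1:**
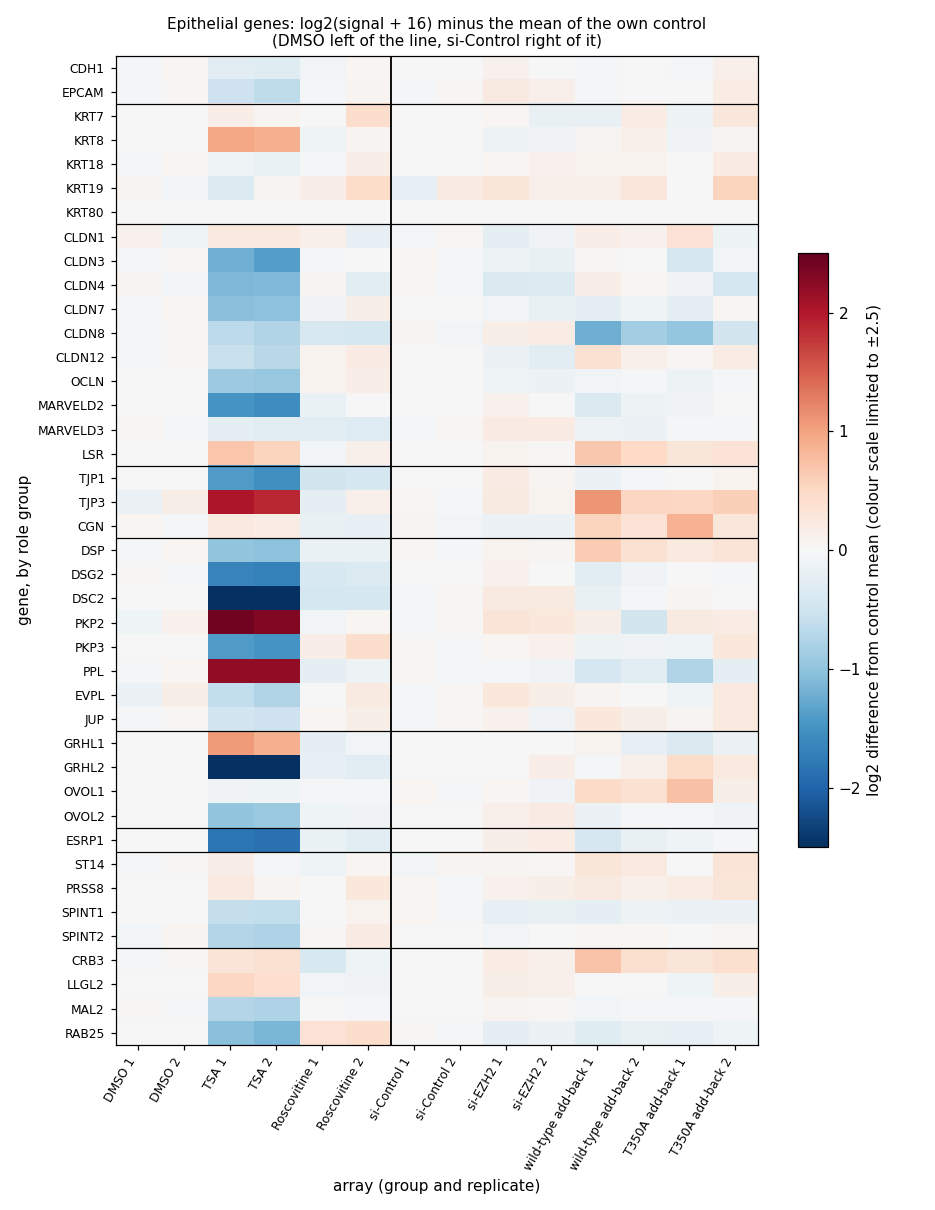
Signal of the 41 epithelial genes (rows, by role) in each of the 14 arrays (columns), as log2(signal + 16) minus the mean of the 2 DMSO arrays for the drug groups and of the 2 si-Control arrays for the transfected groups. Blue is lower and red higher than that control, with the colour limited at ±2.5. The 2 TSA columns carry most of the strong colour in both directions, and KRT80, listed at 1 throughout, stays white.

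TSA changed most of the epithelial genes. Of the 41 genes 24 fell, 8 rose and 9 were not called against DMSO, and the median difference was -0.57, beside 0.0085 over all genes. In all, 42.1% of the 19775 genes were called in this comparison, 20.7% as higher and 21.5% as lower, against 78.0% of the epithelial genes. The desmosomal cadherin gene DSC2 (-3.06) and the transcription factor gene GRHL2 (-2.60) fell, while the plaque genes PKP2 and PPL rose by 2.37 and 2.21. These are bulk samples, so fewer cells of a kind and less RNA per cell cannot be told apart. All 6 luminal markers measured fell with TSA as well, among them KLK3 (-4.95) and TMPRSS2 (-3.80), and their summed signal went from 25300 to 26124 with DMSO to 3262 to 3355 with TSA. The part of that change in the results on junction genes was not tested.

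**Figure D2:**
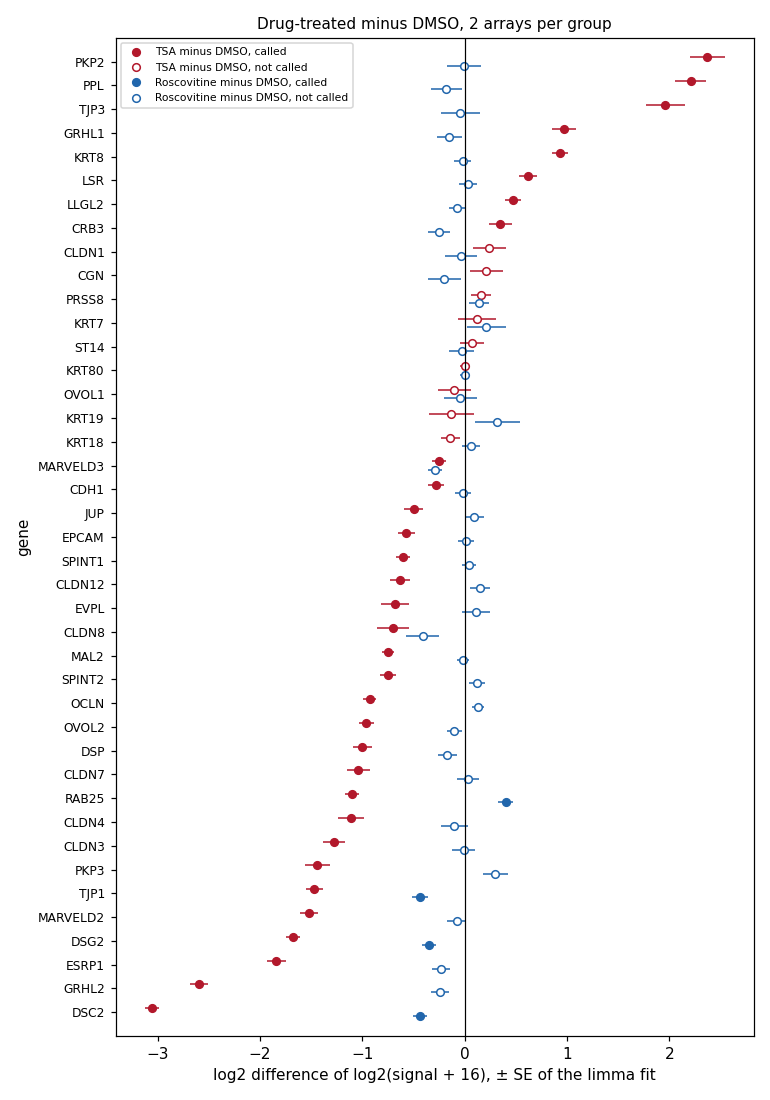
Difference of TSA from DMSO (red) and of Roscovitine from DMSO (blue) for the 41 epithelial genes, on the log2(signal + 16) scale, ordered by the TSA difference. Points are fitted differences, bars ± 1 SE, and filled points are called genes. TSA differences run from -3.06 for DSC2 to 2.37 for PKP2, and the 4 called Roscovitine differences lie between -0.44 and 0.40; both drugs are set against the same 2 DMSO arrays.

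Both surface adhesion genes fell. CDH1, which encodes E-cadherin, had signals of 7523 and 7990 with DMSO, 6497 and 6286 with TSA, 7357 and 8007 with Roscovitine and 7518 to 8457 in the 8 transfected arrays. Both TSA arrays were the lowest of the 14, and CDH1 fell by 0.28 (SE 0.08, adjusted p = 0.0182). That call was lost without DMSO replicate 2 (-0.23), without TSA replicate 2 (-0.25) and with quantile normalization (-0.14), although the other CDH1 probe set fell too (-0.41 ± 0.08, adjusted p = 0.00341). EPCAM, a homophilic adhesion protein of epithelia, went from 5846 and 6025 with DMSO to 4121 and 3842 with TSA. The groups did not overlap, and EPCAM fell by 0.57 (SE 0.08, adjusted p = 0.000303).

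The keratins did not move together. KRT8, the type II keratin of simple epithelia, rose from 2464 and 2469 with DMSO to 4866 and 4560 with TSA, a difference of 0.93 ± 0.08 (adjusted p = 1.19e-05), and stayed between 2275 and 2978 in all arrays without TSA. KRT18, its type I filament partner, read 7036 and 7470 with DMSO and 6725 and 6441 with TSA. Its difference of -0.14 had a 95% interval from -0.34 to 0.061 and was not called (adjusted p = 0.263). A fall of up to 0.34 therefore remains compatible with these arrays. KRT7 (0.12 ± 0.19) was not called either at its brightest probe set, with a mean signal of 434. A dimmer KRT7 probe set, at a mean signal of 97.3, was higher with TSA (0.74 ± 0.24, adjusted p = 0.0351). Those at 5.21 and 1.71 had no call. KRT19 read 142 and 126 with DMSO against 102 and 141 with TSA, with overlapping groups. KRT8 and KRT18 have many processed pseudogenes, and whether the probe sets also read them was not tested.

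Of the 10 tight junction strand genes measured 8 fell, 1 rose and 1 was not called. The claudins form the paired strands that seal the space between cells. CLDN3 went from 1211 and 1277 with DMSO to 534 and 470 with TSA, and CLDN4 from 2652 and 2443 to 1164 and 1174. CLDN7 went from 4101 and 4337 to 2042 and 2053. In each of these claudins both TSA arrays lay under every other array of the series, and the differences were -1.28 ± 0.11, -1.11 ± 0.13 and -1.04 ± 0.11 (adjusted p from 1.24e-05 to 9.59e-05). CLDN8 (-0.70 ± 0.16) and CLDN12 (-0.63 ± 0.10) fell too. CLDN1 had 349 and 296 with DMSO and 384 and 383 with TSA and was not called (0.24, 95% interval -0.13 to 0.61).

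The MARVEL-domain proteins of the tight junction fell beside the claudins. MARVELD2, tricellulin, which seals the corners where 3 cells meet, had signals of 2865 and 2861 with DMSO, 1015 and 963 with TSA and 2392 to 3286 in the other 10 arrays. It fell by 1.52 ± 0.09 (adjusted p = 1.15e-06). OCLN, occludin, went from 2221 and 2267 to 1185 and 1155, a difference of -0.93 ± 0.06. MARVELD3 fell by 0.25 ± 0.07 (adjusted p = 0.0112), a call that was lost without DMSO replicate 1 (-0.21), without TSA replicate 2 (-0.22) or with the mean of its probe sets (-0.17). LSR, which recruits tricellulin to those corners, went the other way: it rose from 2249 and 2272 to 3661 and 3312 (0.62 ± 0.09, adjusted p = 0.000344).

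The scaffolds under the tight junction split. TJP1, the main zonula occludens scaffold that ties claudins to actin, read 6713 and 6577 with DMSO, 2488 and 2295 with TSA, 4862 and 4920 with Roscovitine and 5737 to 7319 in the transfected arrays. Its difference with TSA was -1.47 ± 0.08 (adjusted p = 4.23e-07). TJP3, another protein of that family, rose from 68.6 and 88.2 to 366 and 333, a difference of 1.96 ± 0.19 (adjusted p = 2.04e-05), and its other probe set rose by 2.14 ± 0.27. Without TSA, TJP3 lay between 64.5 and 168. CGN, cingulin, read 458 and 421 against 522 and 499 and was not called (0.21, 95% interval -0.15 to 0.57).

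All 8 genes of desmosomes and the cornified plaque were called with TSA, 6 as lower and 2 as higher. DSC2, one of the cadherins that bridge cells at desmosomes, read 2101 and 2121 with DMSO, 234 and 245 with TSA, 1544 and 1560 with Roscovitine and 1657 to 2231 in the transfected arrays. Its difference with TSA was -3.06 ± 0.07 (adjusted p = 4.93e-09), and 2 of its 3 other probe sets fell too (-3.46 and -2.68), the remaining one having a mean signal of 32.0 and no call. Its partner cadherin DSG2 went from 4800 and 4622 to 1462 and 1449, a difference of -1.68 ± 0.07 (adjusted p = 1.57e-07). The 250 bases before the start of both cadherin genes, which lie on chromosome 18, are shown as those of the genes with the largest falls among the genes with a RefSeq promoter. Each holds the E-box CACCTG or its reverse complement CAGGTG, which SNAI and ZEB factors are known to bind. The matches are in capitals, the sequences are from RefSeq (GRCh38.p14), and each is read 5′ to 3′ on the gene's strand, DSC2 at chr18:31102422-31102671 on the minus strand and DSG2 at chr18:31497927-31498176 on the plus strand.
DSC2: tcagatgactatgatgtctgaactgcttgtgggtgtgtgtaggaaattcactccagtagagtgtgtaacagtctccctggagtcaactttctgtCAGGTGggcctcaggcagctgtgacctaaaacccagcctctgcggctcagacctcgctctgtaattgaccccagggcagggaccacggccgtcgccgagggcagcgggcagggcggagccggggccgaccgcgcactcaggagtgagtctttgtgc
DSG2: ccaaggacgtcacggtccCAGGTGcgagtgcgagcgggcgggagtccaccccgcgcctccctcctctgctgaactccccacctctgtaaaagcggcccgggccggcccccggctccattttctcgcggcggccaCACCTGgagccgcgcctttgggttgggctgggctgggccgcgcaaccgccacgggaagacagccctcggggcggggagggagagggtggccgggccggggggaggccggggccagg

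The plakin and armadillo proteins couple those cadherins to keratin, and they split by gene. DSP, desmoplakin, which holds the filaments, went from 3386 and 3586 to 1760 and 1705. It fell by 1.00 ± 0.09 (adjusted p = 9.32e-06). The armadillo protein gene PKP3 went from 2334 and 2382 to 874 and 843 (-1.44 ± 0.12), and its relative PKP2 rose from 72.0 and 85.0 to 488 and 453 (2.37 ± 0.17, adjusted p = 2.65e-06). Both TSA arrays of PKP2 exceeded all 12 others, which reached at most 113. JUP, plakoglobin, fell by 0.50 ± 0.09. The 2 plakins of the cornified plaque went opposite ways, PPL, periplakin, rising from 219 and 237 to 1112 and 1122 (2.21 ± 0.15, adjusted p = 1.67e-06) and EVPL, envoplakin, falling from 278 and 346 to 198 and 179 (-0.68 ± 0.14, adjusted p = 0.00326).

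The 2 grainyhead factors, which activate junction genes in epithelia, also went opposite ways. GRHL2 read 2349 and 2329 with DMSO, 367 and 376 with TSA, 2018 and 1946 with Roscovitine and 1868 to 2627 in the transfected arrays, a difference with TSA of -2.60 ± 0.09 (adjusted p = 4.64e-08). GRHL1 rose from 569 and 578 to 1214 and 1068 (0.97 ± 0.12, adjusted p = 0.000105). OVOL2, a zinc finger repressor of ZEB genes, fell from 542 and 555 to 269 and 281 (-0.96 ± 0.07), and its relative OVOL1 was not called (-0.10, 95% interval -0.45 to 0.26). ESRP1, which sets epithelial splice forms, went from 1359 and 1385 to 383 and 363, a difference of -1.84 ± 0.09 (adjusted p = 2.28e-07).

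The promoters of the 2 genes with the largest rises among those with a RefSeq promoter are shown as well. They are TJP3 at chr19:3708134-3708383 and GRHL1 at chr2:9951443-9951692, both on the plus strand. Neither stretch of 250 bases holds CACCTG or CAGGTG, so there are no capitals.
TJP3: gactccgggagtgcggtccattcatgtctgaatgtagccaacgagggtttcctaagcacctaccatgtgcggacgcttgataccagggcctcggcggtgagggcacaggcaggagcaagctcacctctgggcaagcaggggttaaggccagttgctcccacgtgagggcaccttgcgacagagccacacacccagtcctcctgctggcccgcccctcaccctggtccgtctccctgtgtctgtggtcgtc
GRHL1: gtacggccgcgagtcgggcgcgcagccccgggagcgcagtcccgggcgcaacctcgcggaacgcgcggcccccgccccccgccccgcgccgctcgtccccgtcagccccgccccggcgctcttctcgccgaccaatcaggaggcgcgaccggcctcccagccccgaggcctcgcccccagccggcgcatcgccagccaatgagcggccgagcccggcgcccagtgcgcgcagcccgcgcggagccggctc

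RefSeq promoters from 250 bases before to 50 after the start were at hand for 20 of the 41 genes. CACCTG, searched on both strands, occurred in 40% of these 20, in 20.6% of all 35116 promoters, in 7 of the 13 genes with a promoter that fell with TSA (53.8%) and in 1 of the 5 that rose (20%). The 1 was CRB3, with 5 matches. MARVELD2, CLDN4 and CLDN7 were among the genes that fell and had no match. GGGCGG, or CCGCCC on the other strand, the GC box of SP factors, occurred in 75% of the 20 and 45% of all. It occurred in 76.9% of the 13 that fell and 60% of the 5 that rose. A further motif searched, AACCNGGTT, occurred in 0 of the 20 and in 0.239% of all promoters. These are counts of letters in a window, and a match is not a binding site. Whether the motifs bear on the TSA differences was not tested.

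The membrane-anchored proteases of epithelia and their inhibitors divided by kind. The proteases were not called: ST14, matriptase, read 928 and 972 with DMSO and 1071 and 934 with TSA, and PRSS8, prostasin, 730 and 734 against 866 and 773 (0.16, 95% interval -0.064 to 0.38). Both inhibitors of the Kunitz type fell, SPINT2 from 4685 and 5128 to 2950 and 2875 (-0.75 ± 0.08) and SPINT1 from 1321 and 1337 to 877 and 865 (-0.60 ± 0.07). The other SPINT1 probe set, at a mean signal of 164 against 1356, differed the opposite way without a call (0.29 ± 0.12, adjusted p = 0.0927), and the mean of both gave -0.15, which was not called. It was the 1 gene with such a conflict, as 21 of the 22 other probe sets of the called genes had the sign of the main one.

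Among the genes of polarity and apical traffic, RAB25, a small GTPase of apical recycling, fell from 2285 and 2333 to 1105 and 1038 (-1.10 ± 0.07, adjusted p = 2.00e-06). MAL2, which serves transport to the apical membrane, fell from 5784 and 5584 to 3402 and 3343 (-0.75 ± 0.06). LLGL2, a basolateral polarity protein, rose by 0.47 ± 0.08, a call that was lost with the mean of its probe sets (0.33). CRB3, the Crumbs protein of the apical membrane, rose from 466 and 479 to 592 and 621 (0.35 ± 0.11, adjusted p = 0.0344). The CRB3 call was lost without any one of the DMSO or TSA arrays (0.32 to 0.38) or of the si-Control arrays.

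**Figure D3:**
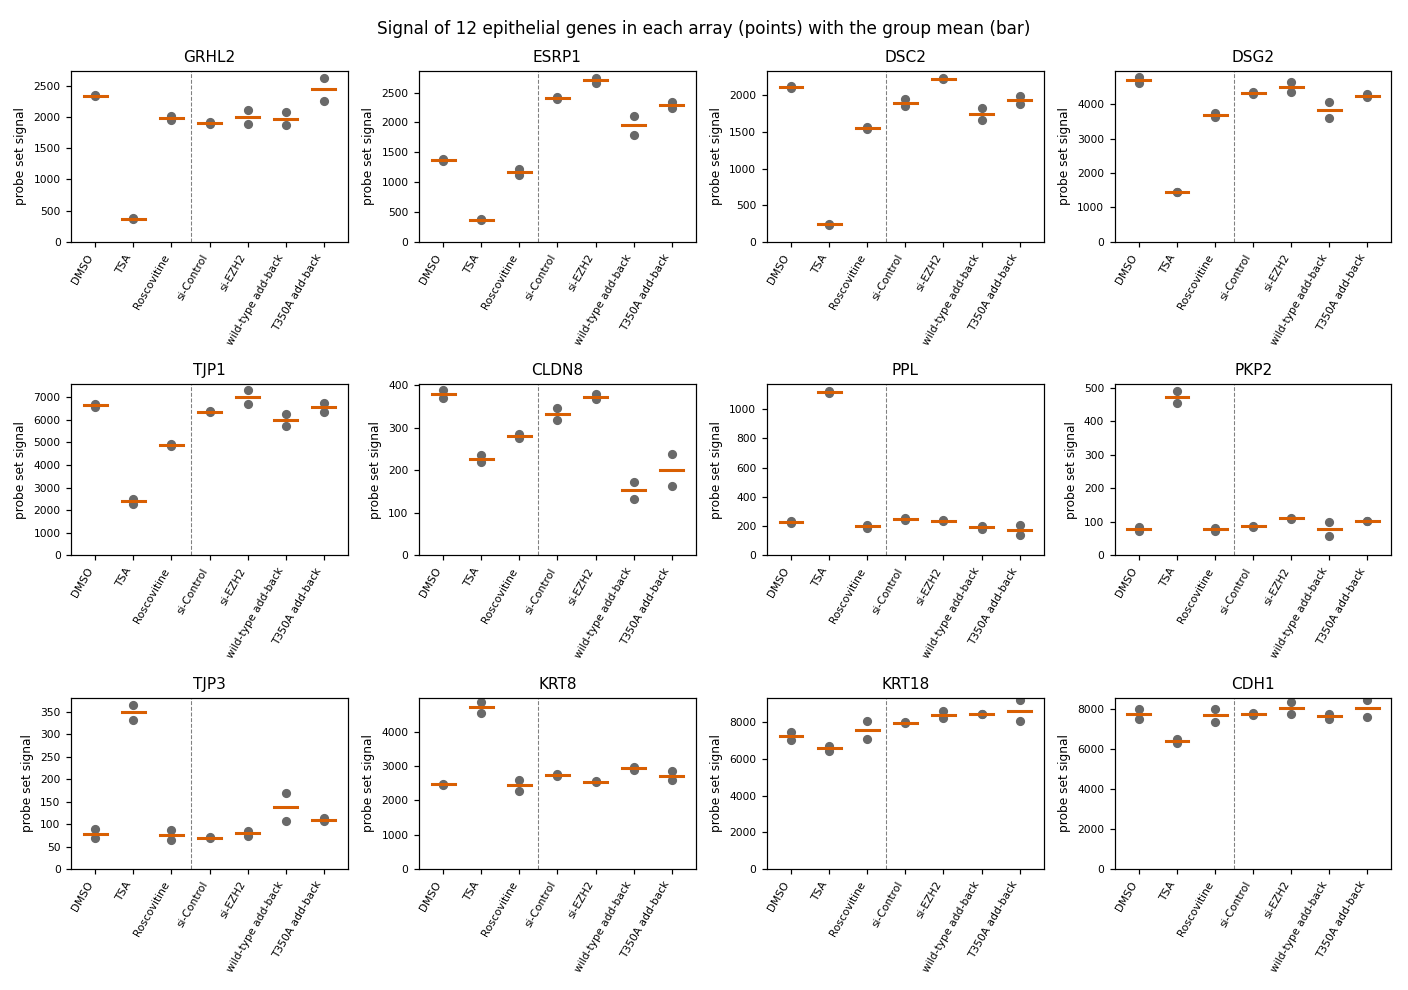
Probe set signal (linear axes from 0) of 12 epithelial genes in each array (points) with the mean of the 2 arrays (bars), drug groups left of the dashed line. GRHL2, ESRP1, DSC2, DSG2 and TJP1 are lowest and PPL, PKP2, TJP3 and KRT8 highest in the 2 TSA arrays; CLDN8 is lowest in the wild-type add-back, at 133 and 174; CDH1 is lowest with TSA, at 6497 and 6286.

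Other junction genes were measured from a further list, chosen with earlier results of these data known. With TSA 8 of 40 rose and 3 fell, so 27.5% were called where 42.1% of all genes were, and the share that rose was near the 20.7% of all genes called higher. NECTIN3, an immunoglobulin-type adhesion protein of adherens junctions, read 41.0 and 40.6 with DMSO and 489 and 460 with TSA (3.11 ± 0.16), and JAM3, a junctional adhesion protein, 179 and 169 against 999 and 1002 (2.42 ± 0.17). Both genes were separated from all 12 other arrays. CLDN23 rose by 1.05 ± 0.09 and PARD6B, a polarity scaffold, by 0.86 ± 0.15. PERP, a desmosomal membrane protein (-0.90 ± 0.07), and PALS1, a partner of the Crumbs proteins (-0.71 ± 0.08), fell. PATJ, which binds PALS1, fell by 1.10 ± 0.09, a call that was lost with the mean of its probe sets (-0.083). Of 15 other keratins 1 rose, KRT20, from 55.8 and 36.7 to 154 and 117 (1.29 ± 0.21), and none fell.

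Of the 6 repressors of the epithelial programme 3 rose with TSA and none fell, so 50% were called where 42.1% of all genes were (20.7% higher). SNAI1 went to 118 and 120 with TSA from a DMSO mean of 20.4 ± 0.962 (SD, n = 2), a difference of 1.89 ± 0.28 (adjusted p = 0.000336), and lay between 1.10 and 23.6 in the other arrays without TSA. With a pseudocount of 1 the difference was 2.49 and not called. TWIST1 reached 438 and 375 against a DMSO mean of 188 ± 10.5 (1.05 ± 0.10, adjusted p = 1.41e-05). ZEB1 rose by 0.83 ± 0.19 to 112 and 134, and was not called without DMSO replicate 1 (0.68) or TSA replicate 2 (0.72). SNAI2 (0.97 ± 0.74) and ZEB2 (-0.26 ± 0.11, adjusted p = 0.0858) were not called. Of the 8 mesenchymal markers VIM rose by 1.29 ± 0.08 and COL1A1 by 1.49 ± 0.15, FN1 (-0.83 ± 0.08) and COL3A1 (-0.78 ± 0.15) fell, and CDH2, N-cadherin, was not called (0.23, 95% interval -0.090 to 0.55). The summed mesenchymal signal was 8123 to 8252 with DMSO and 7423 to 7614 with TSA. FN1 made up most of the sum with DMSO, at a mean of 5456 against 3068 with TSA. Of the 8 differences 5 were above 0 and 3 below, with a median of 0.12.

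**Figure D4:**
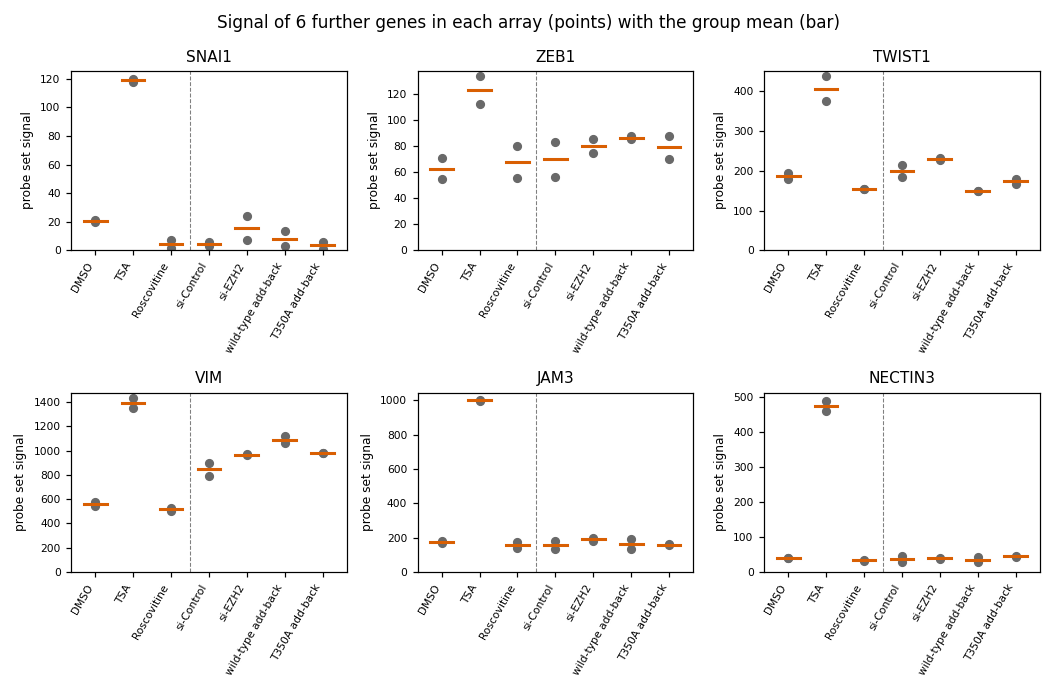
Probe set signal (linear axes from 0) of 3 repressors of the epithelial programme, the mesenchymal marker VIM and 2 adhesion genes in each array (points) with the mean of the 2 arrays (bars). In all 6 panels the 2 TSA arrays are the highest of the 14, SNAI1 at 118 and 120 and NECTIN3 at 489 and 460.

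Roscovitine moved few of the epithelial genes. Of the 41 genes 3 fell and 1 rose against DMSO, where 2.78% of all genes were called (2.21% lower, 0.561% higher), and the median difference was -0.021. The junction genes DSC2 (-0.44 ± 0.07, adjusted p = 0.0154), TJP1 (-0.44 ± 0.08, adjusted p = 0.0215) and DSG2 (-0.35 ± 0.07, adjusted p = 0.0414) fell. DSG2 read 3636 and 3732 with Roscovitine against 4800 and 4622 with DMSO, and in all 3 genes the groups did not overlap. RAB25 rose to 2953 and 3134 (0.40 ± 0.07, adjusted p = 0.0270). All 4 calls were lost with the drug arrays alone, without both arrays that stood apart, and without any one of the DMSO or Roscovitine arrays, Roscovitine replicate 2 among them, while the differences stayed between -0.46 and -0.33 for the 3 that fell and between 0.35 and 0.44 for RAB25. DSG2 was called in 4 of the 14 fits without 1 array, and not with a common median for all arrays (-0.36) or with the replicate block (-0.35).

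Further genes came near the threshold with Roscovitine. MARVELD3 read 339 and 324 against 422 and 398 (-0.29, adjusted p = 0.0511), and was called with either other pseudocount. CLDN8 (-0.41, adjusted p = 0.246), ESRP1 (-0.23, adjusted p = 0.238) and GRHL2 (-0.24, adjusted p = 0.249) were not called, nor was PKP3 (0.30, adjusted p = 0.286), which read 2640 and 3204 with Roscovitine. The other ESRP1 probe set, at a mean signal of 1518 against 1754, was called as lower (-0.54 ± 0.09, adjusted p = 0.0207).

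TSA and Roscovitine were set against each other directly, since both comparisons with DMSO share its arrays. Against Roscovitine 22 of the 41 genes were lower and 8 higher with TSA, where 43.1% of all genes were called (21.7% lower, 21.4% higher). This comparison shares the TSA arrays with that against DMSO. The 8 that rose against DMSO, PKP2, PPL, TJP3, GRHL1, KRT8, LSR, LLGL2 and CRB3, were also higher with TSA than with Roscovitine, by 0.54 (LLGL2) to 2.40 (PPL). DSC2 (-2.62 ± 0.07) and GRHL2 (-2.37 ± 0.09) were lower with TSA. RAB25, which lay under DMSO with TSA and over it with Roscovitine, differed between the drugs by -1.49 ± 0.07 (adjusted p = 3.25e-07). CDH1 was lower with TSA (-0.26 ± 0.08, adjusted p = 0.0231), and not called without Roscovitine replicate 2 or either TSA array (-0.32 to -0.20 over the arrays left out). The CDH1 call was also lost with quantile normalization (-0.13) and without both arrays that stood apart (-0.20). The call was missing for 2 genes that had fallen against DMSO, MARVELD3 (0.042, 95% interval -0.11 to 0.19) and CLDN8 (-0.29, 95% interval -0.65 to 0.069).

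Knockdown of EZH2 called none of the 41 genes. In this comparison of si-EZH2 with si-Control 0.845% of all genes were called in the limma fit (0.708% higher, 0.137% lower). An unadjusted p under 0.05 was found for 6 of the 41 genes and for 2260 of all 19775. The median difference was 0.054, beside 0.037 over all genes. CDH1 read 7713 and 7817 with si-Control and 8370 and 7766 with si-EZH2, a difference of 0.054 with a 95% interval from -0.13 to 0.23. KRT8 differed by -0.11 (-0.29 to 0.078) and KRT18 by 0.078 (-0.12 to 0.28). The 6 genes under an unadjusted 0.05 were DSC2 (0.23), MARVELD3 (0.21) and OVOL2 (0.16), higher with si-EZH2, and CLDN4 (-0.35), SPINT1 (-0.20) and RAB25 (-0.19), lower, with adjusted p from 0.220 to 0.390. MARVELD3 read 426 and 453 with si-Control and 511 and 509 with si-EZH2, and CLDN4 read 3625 and 3515 against 2763 and 2831, without overlap.

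Return of wild-type EZH2 called 9 of the 41 genes against si-EZH2, 4 as higher and 5 as lower, where 11.4% of all genes were called (3.37% higher, 7.98% lower). The median difference was -0.013, beside -0.053 over all genes. The split of 4 and 5 became 6 and 5 with quantile normalization and 6 and 4 with each array at the same median. Among strand genes CLDN8 had signals of 347 and 318 with si-Control, 368 and 380 with si-EZH2 and 133 and 174 with the wild-type add-back. Both lay under the lowest TSA array, at 219, and every array but those of T350A. CLDN8 fell by 1.21 ± 0.16 (adjusted p = 0.00334), a call that held in each of the 14 fits without 1 array. MARVELD3 fell by 0.34 ± 0.07 (adjusted p = 0.0128), from 511 and 509 to 402 and 396. LSR rose from 2209 and 2135 to 3351 and 2955 (0.53 ± 0.09, adjusted p = 0.00845), and CLDN12 from 4308 and 3950 to 6246 and 5185 (0.46 ± 0.10, adjusted p = 0.0237).

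In the plaques DSP rose from 4488 and 4429 to 6542 and 5524 (0.43 ± 0.09, adjusted p = 0.0149) and CGN, cingulin, from 437 and 437 to 715 and 631 (0.60 ± 0.16, adjusted p = 0.0416). DSC2 fell from 2231 and 2220 to 1657 and 1825 (-0.35 ± 0.07, adjusted p = 0.0144), ESRP1 from 2660 and 2746 to 1797 and 2112 (-0.47 ± 0.09, adjusted p = 0.0114) and OVOL2 from 605 and 638 to 501 and 534 (-0.26 ± 0.07, adjusted p = 0.0351). In each of these 5 genes the groups did not overlap. CDH1, KRT8, KRT18 and EPCAM were not called, nor were TJP3 (0.67, adjusted p = 0.0517), CRB3 (0.40, adjusted p = 0.0564) and CLDN4 (0.46, adjusted p = 0.0577). The count of 9 became 2 and 1 without si-EZH2 replicate 1 and 2, and 3 without replicate 1 of the wild-type add-back. In a fit of the transfection arrays alone none of the 9 was called, and CGN was called in 2 and OVOL2 in 5 of the 14 fits without 1 array. OVOL2 also lost its call with quantile normalization (-0.19), with a common median for all arrays (-0.22) and with the mean of probe sets (-0.19), and CGN with a common median for all arrays (0.64). The differences of the 9 genes kept their sign in those 14 fits, and the DSC2 difference turned to 0.21 with the mean of its probe sets. Among these the dim one, at a mean signal of 32.0, was called as higher (1.46 ± 0.29, adjusted p = 0.0178). The DSC2 probe sets at mean signals of 894 and 359 stood at -0.22 (adjusted p = 0.216) and -0.033 (adjusted p = 0.899), both without a call.

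The luminal markers also moved with the wild-type add-back. Their summed signal was 25129 to 25261 with si-EZH2, 14476 to 20435 with the wild-type and 20880 to 24003 with the T350A add-back. KLK2 (-1.02 ± 0.21) and ACP3 (-0.53 ± 0.14) fell with the wild-type add-back, and the mesenchymal marker FN1 rose by 0.45 ± 0.08. Of the other junction genes CGNL1, a relative of cingulin, rose (0.47 ± 0.10) and PALS1 fell (-0.37 ± 0.08), 2 of 40, and of the 6 repressors ZEB2 rose (0.48 ± 0.11) and TWIST1 fell (-0.56 ± 0.10). The part of these changes in the junction results was not tested.

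**Figure D5:**
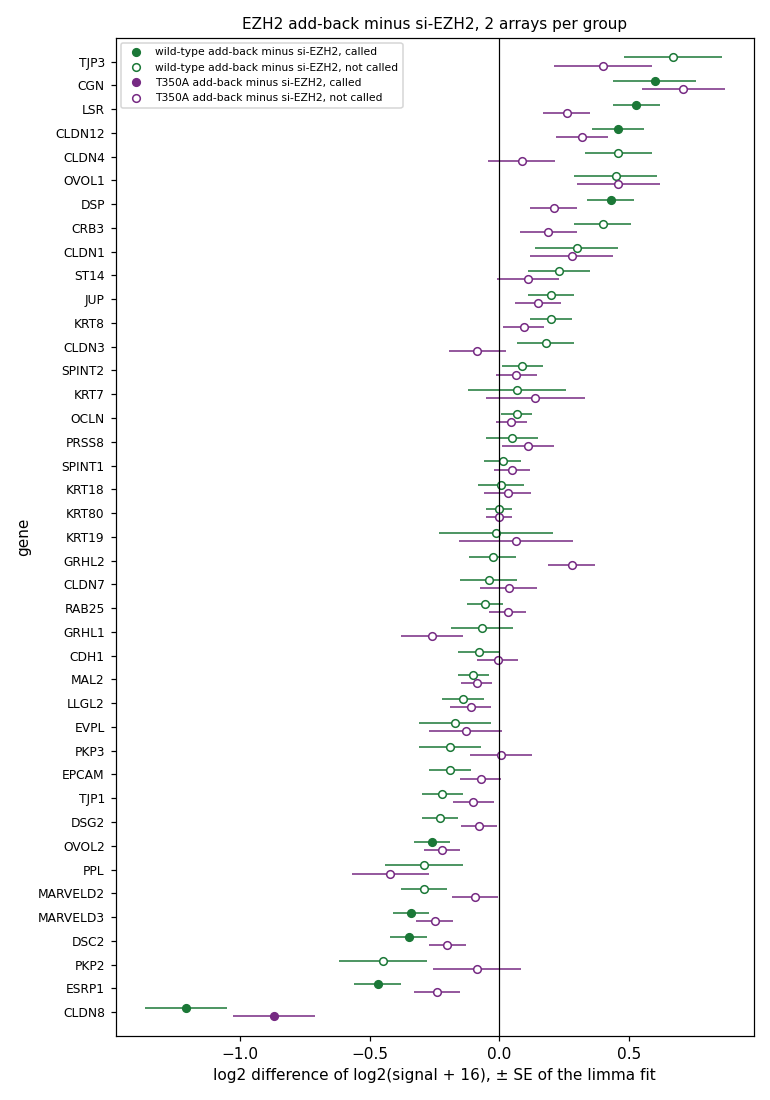
Difference of the wild-type add-back (green) and of the T350A add-back (purple) from si-EZH2 for the 41 epithelial genes, on the log2(signal + 16) scale, ordered by the wild-type difference. Points are fitted differences, bars ± 1 SE, and filled points are called genes. CLDN8 is filled in both, at -1.21 and -0.87; both add-backs are set against the same 2 si-EZH2 arrays.

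Return of T350A EZH2 called 1 of the 41 genes, CLDN8, where 0.809% of all genes were called (0.642% higher, 0.167% lower). An unadjusted p under 0.05 in the limma fit was found for 12 of the 41 genes and for 2517 of all 19775. CLDN8 read 163 and 238 with the T350A add-back and fell by 0.87 ± 0.16 (adjusted p = 0.0473). This call was lost in 11 of the 14 fits that left out 1 array, among them those without si-EZH2 replicate 1 (-0.89), si-EZH2 replicate 2 (-0.85) or T350A add-back replicate 1 (-0.62), and with the replicate number as a block. Leaving out T350A add-back replicate 2, the array that stood apart, left 1 array in that group. The CLDN8 difference was then -1.12 and that of CGN 1.00. CGN read 892 and 589 with T350A and was not called over both replicates (0.71 ± 0.16, adjusted p = 0.0893). OVOL1 read 970 and 638 with T350A and PPL 142 and 212. In CGN, OVOL1 and PPL replicate 1 lay farther from the si-EZH2 arrays than replicate 2.

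The genes called with the wild-type add-back were given side by side with T350A, as both share the si-EZH2 arrays. The T350A differences were -0.25 for MARVELD3, 0.26 for LSR, 0.32 for CLDN12, 0.21 for DSP, -0.20 for DSC2, -0.24 for ESRP1 and -0.22 for OVOL2, none of them called (adjusted p from 0.151 to 0.354). A missing call in one comparison and a call in the other do not show that the 2 add-backs differ.

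The direct comparison of T350A with wild-type EZH2 called none of the 41 genes. Here 0.207% of all genes were called in the limma fit (0.0455% higher, 0.162% lower). An unadjusted p under 0.05 was found for 6 of the 41 genes and for 3242 of all 19775. The median difference was 0.036, beside 0.063 over all genes. CLDN8 differed by 0.34 with a 95% interval from -0.019 to 0.70. The 6 genes were GRHL2 (0.31, interval 0.10 to 0.51) and ESRP1 (0.23), higher with T350A, and LSR (-0.27, interval -0.48 to -0.066), CLDN4 (-0.38, interval -0.68 to -0.073), DSP (-0.22) and CLDN3 (-0.26), lower, with adjusted p from 0.184 to 0.297. GRHL2 read 1868 and 2077 with the wild-type and 2627 and 2263 with the T350A add-back, without overlap, and CLDN4 read 4033 and 3700 against 3361 and 2627. Without wild-type add-back replicate 2, which left 1 array in that group, the DSP difference was -0.34.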

How the data were processed

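Per the labels, total RNA came from Qiagen RNeasy columns and standard Affymetrix labelling was used, 1 array per sample. The authors deposited 1 table of linear intensity values, which covers 54613 probe sets. Their summary and scaling methods are not given in the sources used here. A second deposited table held the same values for 7022 probe sets. Of the probe sets, 41091 carried 1 gene symbol in the platform annotation (41037 matched to current symbols by gene identifier), 1801 several and 11721 none.

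Signals were used as log2(signal + 16) in 1 limma 3.58.1 model (R 4.3.3; lmFit, contrasts.fit, eBayes) of 7 group means over 14 arrays, with 7 residual and 2.1 prior degrees of freedom, so that each pair is assumed to vary like the others. P-values were adjusted over 19775 genes in each of 7 comparisons. Other probe sets of a gene were tested in a like fit of all probe sets with 1 symbol. The steps were tested on simulated data, in which 19575 of the 19775 genes were left unchanged and the others raised. At a simulated log2 change of 0.5, 20 of 50 genes were recovered with TSA and 20 with si-EZH2. At 1.0 these were 35 and 34 of 50, and at 4.0 all 50 in both. Genes with small changes can therefore go uncalled. In the real arrays 42.1% of all genes were called with TSA, so this recovery does not give the sensitivity of that comparison. The number of arrays limits the precision. The 43 symbols, the role groups, the further lists and the rule for named genes (called genes, 5 fixed genes and the gene of each role group with the smallest p) were chosen with earlier results of these data known, as was the pair of arrays left out together. Genes under an unadjusted 0.05 in the knockdown and T350A comparisons, and the genes given for fits without 1 array, were named after their values were seen. 

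Replicate numbers were not taken to pair samples: replicate differences of same-numbered arrays correlated above 0.1 in 3 of 21 pairs of groups. Alternatives were quantile normalization, a common array median, pseudocounts of 1 and 64, genes with a mean signal of at least 50, averaged probe sets, the arrays of 1 experiment alone, the replicate number as a block, a robust prior with an intensity trend, and leaving out arrays. Leaving out 1 array left its group with 1 array, and the spread then came from the other groups. Promoters are RefSeq GRCh38.p14. Tables used pandas 2.3.3 (Python 3.11.15) and figures matplotlib 3.10.9.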

Additional observations from a re-analysis of the deposited data

How the results depend on the processing

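The count of epithelial genes called with TSA against DMSO stayed between 29 and 32 in every alternative, and that of TSA against Roscovitine between 29 and 32. With Roscovitine against DMSO, 4 genes became 0 with the drug arrays alone and without the 2 arrays that stood apart, and 0 to 5 leaving out 1 array. With the wild-type add-back, 9 became 0 with the transfection arrays alone, 16 with an intensity trend, 13 without the 2 arrays that stood apart and 1 to 12 leaving out 1 array. With T350A against si-EZH2, 1 became 0 with a pseudocount of 1, the mean of probe sets and the transfection arrays alone, 2 with an intensity trend, 4 without the 2 arrays that stood apart and 0 to 4 leaving out 1 array. T350A against the wild-type gave 0 to 1 and si-EZH2 against si-Control 0 throughout. With the replicate number as a block the counts were 32 for TSA against DMSO, 3 for Roscovitine (DSG2 was lost), 10 for the wild-type add-back and 0 for T350A against si-EZH2. The sign turned with the mean of probe sets for CDH1 with si-EZH2 (-0.029) and for DSC2 with the wild-type (0.21) and T350A (0.21) add-back. The median of the epithelial genes with TSA was -0.42 with quantile normalization. Genes called over the whole array were 1 for Roscovitine and 4 for T350A in fits of 1 experiment alone, where fewer arrays set the spread. Of all calls with the wild-type add-back 29.7% were higher, against 39.3% with quantile normalization and 40.2% with a common median. Dim probe sets, such as that of KRT80, limit what can be said of low genes.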
